A study of Mus musculus with 5 samples.

Results

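Semaphorins, plexins and neuropilins were examined in mouse liver after prolonged treatment with an antibody against CSF1R, the receptor for the macrophage growth factors CSF1 and IL-34. The family was taken by gene symbol: every Sema gene named with a class digit and a letter, every plexin of the A to D classes, and both neuropilins. All 31 such genes were measured, among 18820 genes with at least 1 probe set that carried a single symbol. They comprised 20 semaphorins, 9 plexins and 2 neuropilins. Where a gene had several probe sets, the one with the highest mean over the 5 arrays was used. That choice rests on measured levels, and the family itself was picked after results of the same treatment contrast were known. The differences between treated and control liver are therefore given as a description of these arrays, without a p-value.

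All animals were adult C57Bl/6 mice. The control group, 3 liver arrays, received rat IgG, and the treated group, 2 liver arrays, received the anti-CSF1R antibody M279, at 300 µg an injection. Both were injected intraperitoneally 3 times a week over 6 weeks. Labels do not say how many animals the livers came from, so the spread between arrays may be partly technical.

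Semaphorins are secreted or membrane-anchored signalling proteins, first known as cues that steer growing axons and now also known from blood vessels, immune cells and epithelia. Plexins are their receptors: the extracellular part binds the semaphorin, and the cytoplasmic part acts on small GTPases, which changes adhesion to the matrix and the actin skeleton. Most secreted class 3 semaphorins bind neuropilins, which hold them to A-class plexins and which also serve as co-receptors for vascular endothelial growth factors.

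Values are log2 of probe set intensity. A probe set's brightness depends on its probes as well as on RNA abundance, so levels are compared between arrays for a gene and not between genes. Median intensity was 32.5 to 33.9 on every array. The liver identity of the samples was plain from the hepatocyte transcripts Alb and Apoa1, whose group means were all 13.0 or 13.1. Csf1r was at 8.49, 8.68 and 8.61 in the control arrays and at 7.93 and 8.12 in the treated ones. Its groups did not overlap, with a difference of -0.56 ± 0.12 (treated minus control on the log2 scale, ± SE from limma, as are all differences given here). In whole liver, fewer cells of a type and less RNA per cell cannot be told apart.

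The 2 largest differences in the family were those of the plexins Plxnb1 and Plxna2, each at less than 50% of its control intensity. The sequences of their promoters are shown because these genes had the largest differences, beside that of Plxnb2, a B-class plexin whose groups overlapped. Each is the 250 bases upstream of the annotated start in RefSeq (GRCm38.p6), on the gene's own strand, 5′ to 3′. Capitals mark matches to GGGCGG, the GC box, on either strand. Plxnb1 lies at chr9:109095186-109095435 on the plus strand, Plxna2 at chr1:194619579-194619828 on the plus strand, and Plxnb2 at chr15:89180789-89181038 on the minus strand, the more upstream of its 2 listed starts.
Plxnb1: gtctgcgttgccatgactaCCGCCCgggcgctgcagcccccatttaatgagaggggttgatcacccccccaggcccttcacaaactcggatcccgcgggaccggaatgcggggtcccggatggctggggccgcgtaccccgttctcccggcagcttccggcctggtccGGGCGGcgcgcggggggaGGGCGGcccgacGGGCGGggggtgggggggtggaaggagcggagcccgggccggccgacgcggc
Plxna2: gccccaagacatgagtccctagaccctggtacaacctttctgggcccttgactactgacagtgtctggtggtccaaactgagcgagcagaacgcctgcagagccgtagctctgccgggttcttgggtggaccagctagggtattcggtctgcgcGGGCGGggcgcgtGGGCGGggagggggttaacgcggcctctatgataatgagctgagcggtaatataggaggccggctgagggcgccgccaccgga
Plxnb2: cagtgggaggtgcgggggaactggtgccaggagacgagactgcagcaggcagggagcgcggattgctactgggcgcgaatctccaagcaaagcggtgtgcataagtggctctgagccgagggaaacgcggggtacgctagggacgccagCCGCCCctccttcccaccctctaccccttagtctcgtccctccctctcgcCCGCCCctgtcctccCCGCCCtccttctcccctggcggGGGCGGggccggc

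The GC box occurred 4 times in the Plxnb1 window, 2 times in that of Plxna2 and 4 times in that of Plxnb2. It was present in 32.7% of all 32851 RefSeq windows of this length. GC content was 75.2% for Plxnb1, 62.8% for Plxna2 and 69.2% for Plxnb2, against a median of 52.4% over all windows. None of the 3 windows held the E-box CACGTG (6.02% of all windows), the CCAAT box (33.8%), the TATA box TATAAA (12.4%), the AP-1 motif TGANTCA (6.75%) or the cyclic AMP response element TGACGTCA (1.55%), all searched on both strands. Of the 31 family genes, 26 had a window in the table, and 21 of these had a GC box in at least 1 of their windows. Counted by window, as for the 32.7%, it was 27 of 37. The windows shown held the same number of GC boxes for Plxnb1, which differed by 2.16-fold between groups, and Plxnb2, which differed by 1.06-fold. Any part of these motifs in the differences was not tested.

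Among the B-class plexins, which bind class 4 semaphorins and are coupled to RhoA through guanine nucleotide exchange factors, Plxnb1 stood apart. Plxnb1, a receptor for Sema4d, was at 8.32, 8.04 and 8.26 in the control livers and at 7.12 and 7.06 in the treated livers. Both treated values lay well under all controls, and the treated arrays were within 0.1 of each other. The difference was -1.11 ± 0.13, which is 2.16-fold lower in treated liver (mean 8.20 ± 0.15, SD, n = 3, against 7.09 ± 0.04, SD, n = 2). Leaving out any 1 array gave -1.19 to -1.05. A second, dim Plxnb1 probe set ran the other way: it read 4.90, 4.97 and 4.95 in controls and 5.17 and 5.05 after treatment, a difference of 0.17 ± 0.10. The mean of both Plxnb1 probe sets differed by -0.47, still without overlap.

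Plxnb2, a receptor for Sema4c and other class 4 semaphorins, was at 10.38, 10.25 and 10.39 in controls and 10.33 and 10.18 in treated liver. Its groups overlapped, with a difference of -0.08 ± 0.11. Plxnb3, a receptor for Sema5a, read 4.47, 4.31 and 4.31 in controls and 4.85 and 4.73 in treated liver, a difference of 0.42 ± 0.11. Its treated values lay above all controls, in the opposite direction to Plxnb1, at a level below the median probe set (5.04).

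Among the A-class plexins, which transduce class 3 and class 6 semaphorin signals, Plxna2 was the one with a large difference. Plxna2, a receptor for Sema6a and Sema6b as well as a partner of neuropilins, read 8.08, 8.31 and 8.14 in the control arrays and 7.09 and 7.20 in the treated arrays. The difference was -1.03 ± 0.12, or 2.05-fold lower, with control and treated means of 8.17 ± 0.12 (SD, n = 3) and 7.14 ± 0.08 (SD, n = 2). Again the treated arrays were close together and well clear of the controls, and leaving out any 1 array gave -1.09 to -0.97. Over all 18820 genes ordered from the lowest difference up, Plxnb1 was in place 28 and Plxna2 in place 38.

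The other A-class plexins differed much less. Plxna1, which forms a receptor complex with TREM2 and DAP12 on myeloid cells, read 7.19, 7.21 and 7.27 against 7.10 and 7.16, groups that were apart by a narrow margin with a difference of -0.09 ± 0.10. That difference turned to 0.03 after quantile normalization and 0.04 after cyclic loess. Plxna3, a partner of Nrp2 in Sema3f signalling, was at 4.48, 4.33 and 4.27 in controls and at 4.79 and 4.21 in treated liver (0.14 ± 0.19). Plxna4, a receptor for Sema3a and Sema6a, was at 6.02, 6.35 and 6.19 against 6.28 and 5.79 (-0.15 ± 0.18). For both, 1 treated array lay within or above the control range and the other below it.

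Plxnc1, the receptor for Sema7a, read 8.34, 8.56 and 8.23 in controls and 8.61 and 8.69 in treated liver. Its treated values were higher than all controls, by 0.27 ± 0.13 on average. In the values as deposited, Plxnc1 was the only family gene above the median level to differ upwards without overlap. Plxnd1, the endothelial receptor for Sema3e, was at 8.35, 8.35 and 8.37 in controls and 8.46 and 8.32 in treated liver. The treated values fell on either side of the controls, with a difference of 0.04 ± 0.10. The neuropilin Nrp1, co-receptor for Sema3a and VEGFA, read 9.58, 9.24 and 9.46 against 9.26 and 9.19 (-0.20 ± 0.14). Nrp2, co-receptor for Sema3f and VEGFC, read 6.93, 7.52 and 7.37 against 7.20 and 7.10 (-0.12 ± 0.19). Groups overlapped for both neuropilins.

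**Figure D1:**
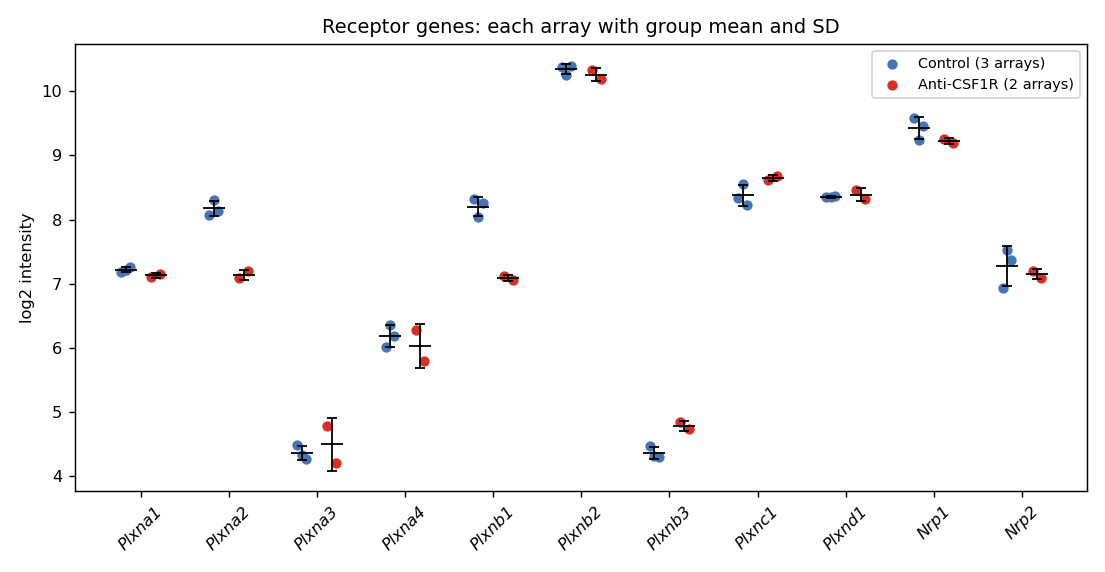
Log2 intensity (vertical axis) of the 9 plexins and 2 neuropilins, with 3 control arrays in blue and 2 anti-CSF1R arrays in red, and bars at the group mean ± SD. Plxnb1 and Plxna2 lie about 1 log2 unit lower in treated liver, while the treated values of Plxnb3 and Plxnc1 lie above their controls and those of the other receptors lie within 0.25 of the control mean on average.

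The ligands showed smaller differences. Of the 6 class 4 semaphorins, which are transmembrane proteins and include the ligands of B-class plexins, 4 were lower in treated liver without overlap (66.7%, beside 19.5% of all genes and 32.6% of those at or above the median level), with a class median of -0.31. After quantile normalization Sema4d and Sema4g were the ones of this class still apart. Sema4d, which is made by lymphocytes among other cells and binds Plxnb1 and CD72, was at 4.78, 5.06 and 4.74 in controls and at 4.49 and 4.51 in treated liver. Both treated values were below all controls, and the difference was -0.36 ± 0.13, or 1.28-fold lower. Sema4d thus ran in the same direction as the brighter probe set of its receptor Plxnb1, at a level below the median probe set.

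Sema4b, another transmembrane member, read 6.54, 6.68 and 6.60 in controls and 6.42 and 6.07 in treated liver (-0.36 ± 0.14). Much of that difference came from treated replicate 2, without which it was -0.19, and it was -0.20 after quantile normalization and -0.23 after cyclic loess. Sema4c, a ligand of Plxnb2, was at 5.77, 5.65 and 5.64 in controls and 5.15 and 5.56 in treated liver (-0.33 ± 0.15). Here treated replicate 1 carried the difference, which was -0.13 without it. Sema4g, which also binds Plxnb2, was at 10.06, 9.93 and 10.11 against 9.87 and 9.63 (-0.28 ± 0.13), or -0.16 without treated replicate 2. A further probe set carried both the Mrpl43 and the Sema4g symbol, and it read 8.14, 8.08 and 8.16 in controls and 8.08 and 8.52 in treated liver, with no separation. Sema4a, a semaphorin of antigen-presenting cells, differed by 0.04 ± 0.11 and the dim Sema4f by 0.05 ± 0.13, both with overlap.

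Of the secreted class 3 semaphorins, 2 of 7 were higher without overlap (28.6%, beside 25.1% of all genes and 45.9% of dimmer genes) and none lower, with a class median of 0.10. Sema3g, a ligand of Nrp2 expressed in endothelium, read 4.43, 4.17 and 4.56 in controls and 4.98 and 4.80 in treated liver. That difference of 0.50 ± 0.15, or 1.41-fold, was the largest upward one in the family. Sema3e, which binds Plxnd1 without a neuropilin, was at 3.85, 4.05 and 3.78 against 4.13 and 4.26 (0.30 ± 0.13). It was 0.19 after quantile normalization and 0.16 after cyclic loess, where its groups overlapped. Both genes were below the median level. The groups of the other class 3 genes overlapped: Sema3a (-0.12 ± 0.14), Sema3b (-0.02 ± 0.16), Sema3c (0.23 ± 0.24), Sema3d (-0.06 ± 0.20) and Sema3f (0.10 ± 0.11).

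Of the class 6 semaphorins, transmembrane ligands of A-class plexins, only Sema6a had groups apart. Sema6a, a ligand of Plxna2 and Plxna4, read 7.98, 8.12 and 7.96 in controls and 7.81 and 7.85 in treated liver (-0.19 ± 0.11), a difference that was -0.09 after cyclic loess. Sema6b (-0.06 ± 0.14), Sema6c (0.04 ± 0.11) and Sema6d, a ligand of Plxna1 (-0.12 ± 0.15), overlapped. Sema6b had 2 probe sets with identical values on all arrays, counted here as 1. The class 5 semaphorins Sema5a (-0.16 ± 0.16) and Sema5b (-0.25 ± 0.17) overlapped as well. Sema7a, a lipid-anchored ligand of Plxnc1 and of integrins, read 3.40, 3.36 and 3.47 against 3.70 and 3.51. Its treated values were higher, as were those of Plxnc1, by 0.20 ± 0.11. The difference was 0.10 without treated replicate 1, 0.05 after quantile normalization and 0.03 after cyclic loess.

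**Figure D2:**
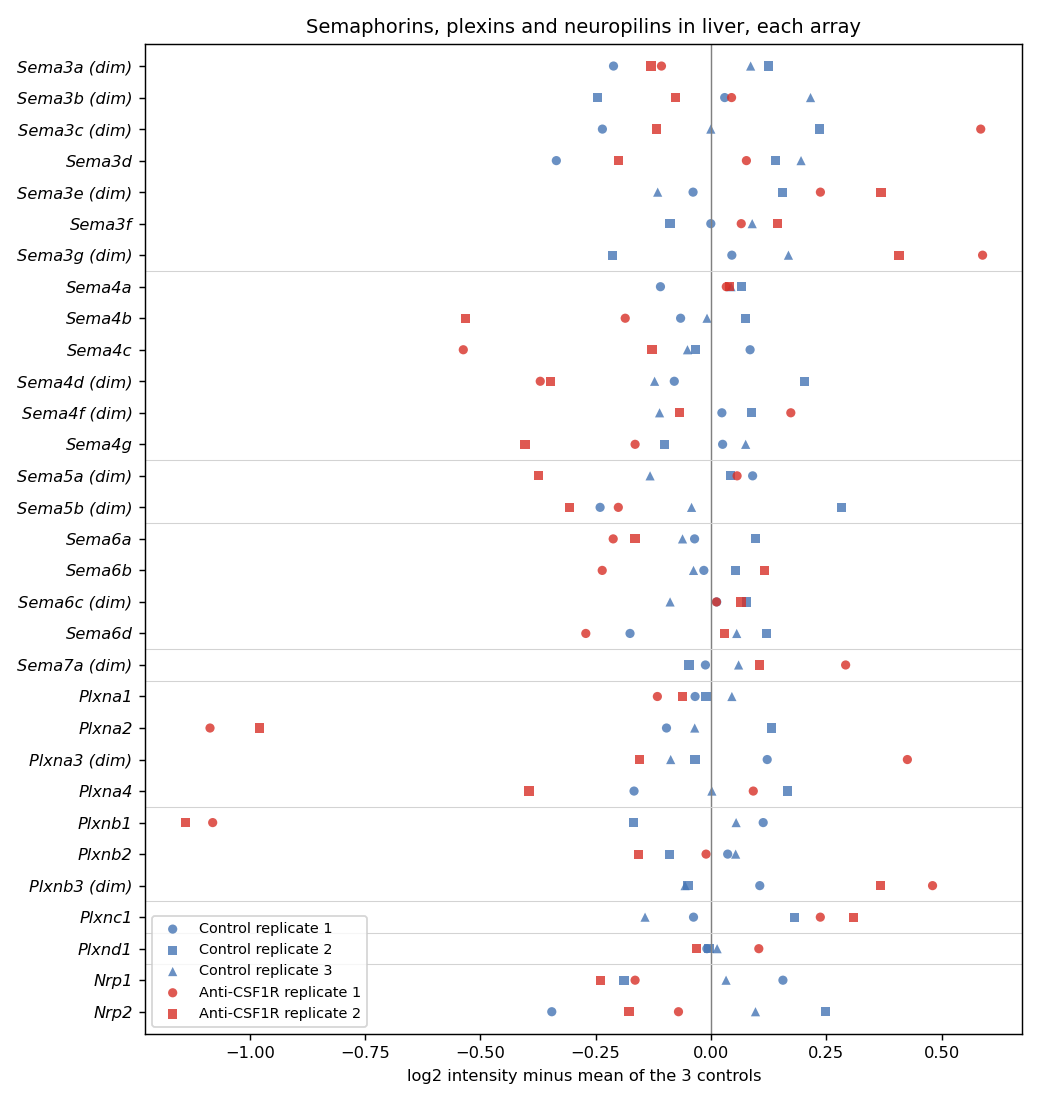
Each array's log2 intensity minus the mean of the 3 controls (horizontal axis) for the 31 genes, grouped by class, with control arrays in blue and anti-CSF1R arrays in red and the symbol shape giving the replicate. Genes marked dim have a mean below the median of all probe sets. Only Plxna2 and Plxnb1 have both treated arrays more than 0.9 below the control mean.

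Over the family, 8 of 31 genes had both treated arrays below all controls and 5 had both above, while 18 overlapped. Over all 18820 genes these shares were 19.5% lower and 25.1% higher, against 25.8% and 16.1% in the family. With each array centred on its median, the family split was 7 lower and 7 higher, beside 16% and 29.9% of all genes. It was 6 and 5 after quantile normalization, beside 14.8% and 19%, and 8 and 5 after cyclic loess, beside 17% and 16.6%. It was 14 lower without control replicate 1 and 15 lower without treated replicate 1, and 9 were higher without treated replicate 2. Fewer arrays overlap less often for any gene, and shares over all genes were not computed with an array left out. In the values as deposited, the direction went with level across the whole array. Among genes at or above the median level, 32.6% were lower and 8.64% higher, and among dimmer genes 3.01% were lower and 45.9% higher. The family followed the same division, with 7 of its 18 brighter genes lower and 1 higher, and 1 of its 13 dimmer genes lower and 4 higher. Sema3e, Sema3g, Sema7a and Plxnb3 were the dim genes with higher values, and Sema4d was the dim gene with lower values. A difference of at least 2-fold downwards without overlap was seen in 34 genes (0.181%), of which Plxnb1 and Plxna2 are 2. Since the family was picked with this contrast known, these counts carry no weight as evidence about the family.

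**Figure D3:**
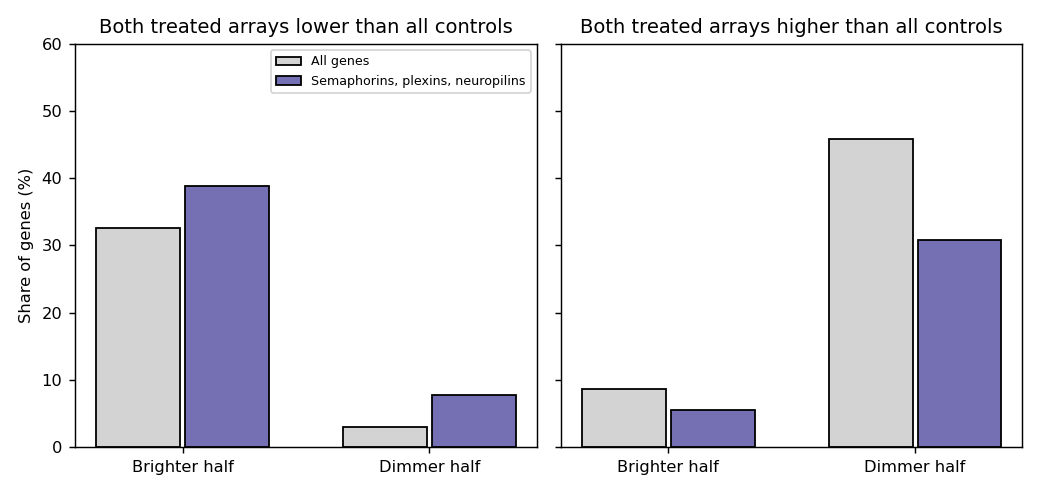
Share of genes (vertical axis, %) whose 2 treated arrays both lie below (left) or above (right) all 3 controls, for all 18820 genes in grey and the 31 family genes in purple, split at the median probe set level. In both sets lower values are found mainly among brighter genes and higher values mainly among dimmer genes.

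The median difference of the 31 genes was -0.08, beside 0.04 over all genes, and 0.0119 without treated replicate 2. It was -0.12 for the 18 brighter members, beside -0.10 over all brighter genes, and 0.05 for the 13 dimmer ones, beside 0.17. Over all genes, the medians of brighter and dimmer genes shrank to -0.0193 and 0.0566 after quantile normalization and to -0.024 and 0.0245 after cyclic loess. Under quantile normalization, centring and cyclic loess as well as the values as deposited, 4 genes were lower without overlap each time, namely Sema4d, Sema4g, Plxna2 and Plxnb1, and 3 were higher each time, namely Sema3g, Plxnb3 and Plxnc1. Over these settings Plxnb1 stayed between -1.11 and -0.998 and Plxna2 between -1.03 and -0.92. Some genes that overlapped as deposited were apart after both quantile normalization and cyclic loess: Sema3a and Sema5b lower, Sema3f and Plxnd1 higher. With each array centred on its median, Sema3f and Sema4a were also higher without overlap.

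**Figure D4:**
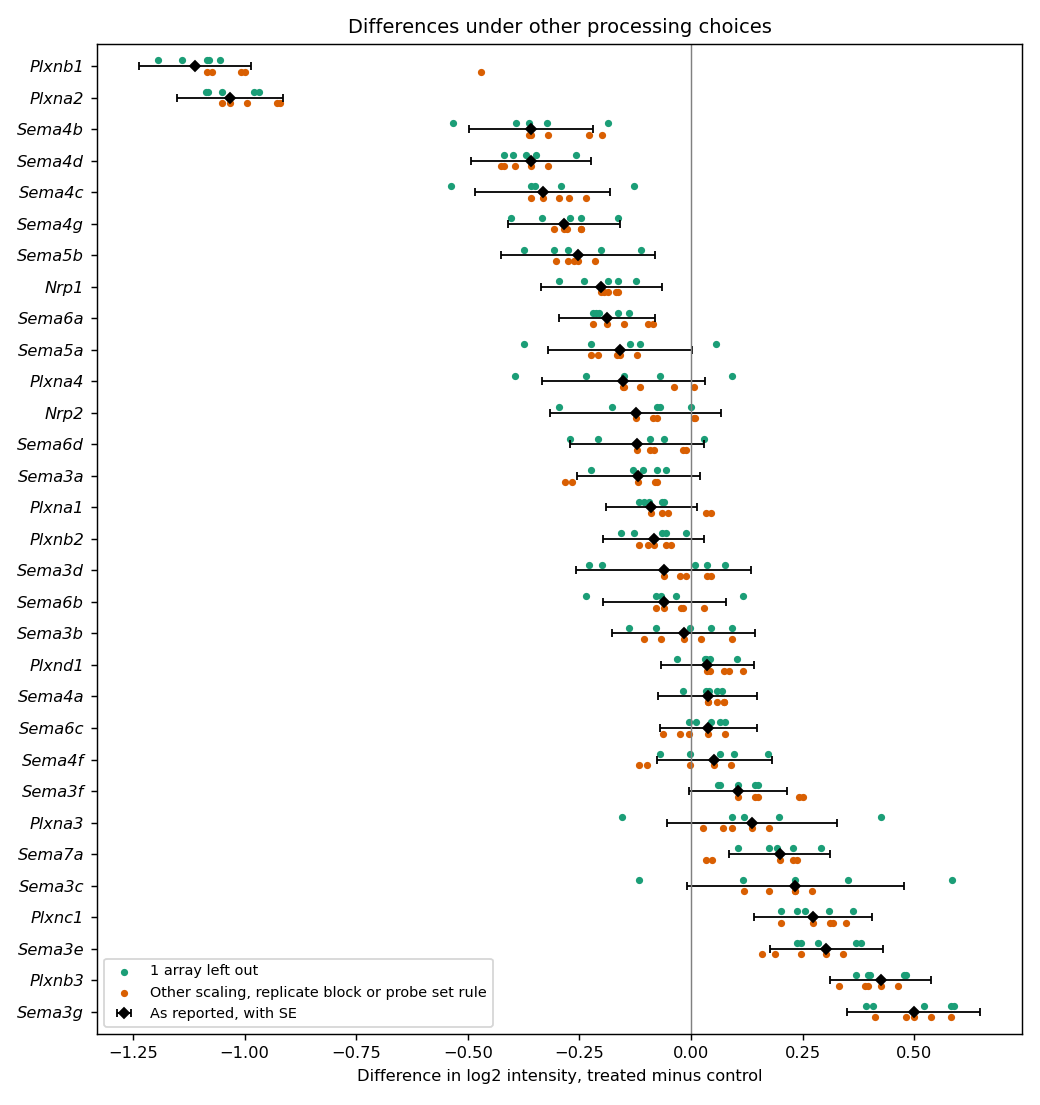
Difference in log2 intensity, treated minus control (horizontal axis), for each of the 31 genes in order of size, with black diamonds for the reported value ± SE. Green points give values with 1 array left out, and orange points those with other scalings, the replicate block or the mean over probe sets. All Plxna2 points lie at or below -0.92, and those of Plxnb1 at or below -0.998 except that of its averaged probe sets, at -0.47.

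Other genes of semaphorin signalling were taken from a list of co-receptors, VEGF ligands, GTPases, their regulators and cytoplasmic effectors, of which 57 of 63 were measured. In the two-sided limma test, adjusted by Benjamini-Hochberg across the 35556 probe sets of the array, 0 were called higher and 0 lower at an adjusted p of 0.05. Of all the array's probe sets, 0 passed (0%), and the smallest adjusted p was 0.175. At an unadjusted p under 0.05 the list had 1 higher and 5 lower genes, and 8.34% of all probe sets were lower and 10.1% higher at that threshold. Groups were apart and lower for 16 of the 57 genes, and apart and higher for 7, where the shares over all genes were 19.5% and 25.1%. Of the 57, 11 were below the median level and the rest at or above it. At or above that level, 32.6% of all genes were lower and 8.64% higher without overlap. Among dimmer genes the shares were 3.01% and 45.9%.

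CD72 is a surface receptor of Sema4d that is found on B cells. Cd72 read 6.03, 6.50 and 6.01 in controls and 4.97 and 5.44 in treated liver. Its treated values were below all controls, with a difference of -0.97 ± 0.21 (limma, adjusted p = 0.192), or 1.96-fold lower. On the probe set used for each gene, Sema4d, Plxnb1 and Cd72 had lower values in both treated livers than in any control. The second, dim Plxnb1 probe set was higher instead. The B cell markers differed by -0.15 for Ms4a1, -0.08 for Cd79a and 0.06 for Cd79b, means of treated arrays that lay far apart. On treated replicate 1 they read 4.62, 4.67 and 5.86, below all controls, and on treated replicate 2 they read 5.33, 5.42 and 6.50, above all controls. Cd72 was lower on the first of these arrays too, but below all controls on both. Summed B cell marker intensity was 132 to 150 in controls and 108 to 173 in treated liver. Which cells carried the Cd72 difference was not tested.

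Among GTPases, Rnd3, a small GTPase that antagonises RhoA signalling, differed by -0.48 ± 0.12 (limma, adjusted p = 0.192), and Rap1a, a substrate of the plexin GTPase-activating domain, was at 0.13 ± 0.11. Rhoa was at 0.01 and Rac1 at 0.06. Rnd1, which binds the cytoplasmic part of plexins, was at 0.06. Of the GTPase regulators, Farp1 was at -0.29 ± 0.12 and Tiam1 at 0.19 ± 0.14, while Arhgef12, the exchange factor that couples B-class plexins to RhoA, was at 0.02.

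Mical2, of the family of actin-oxidising enzymes that act downstream of plexins, read 7.73, 7.81 and 7.59 in controls and 7.25 and 7.24 in treated liver, a difference of -0.47 ± 0.11 (limma, adjusted p = 0.192). Crmp1, a collapsin response mediator that acts in Sema3a signalling, was at 0.45 ± 0.14, at a dim level. Among the VEGF ligands, Vegfa had the smallest p downwards (-0.28 ± 0.15) and the dim Pgf the smallest upwards (0.24 ± 0.11), while Vegfb, chosen after its value was seen, was at 0.34 without overlap. The VEGF receptors that pair with neuropilins were at -0.10 for Kdr, -0.23 for Flt1 and -0.03 for Flt4. Among the other receptors, Ptk7 had the smallest p upwards, at 0.27 ± 0.16, and Met, a partner of Plxnb1, was at 0.05. Trem2 and Tyrobp, which pair with Plxna1 in myeloid cells, were at -0.15 and -0.07.

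Markers of the cell types that could carry these transcripts were read on the same arrays. Of 14 Kupffer cell and macrophage markers, 12 were below 0, with a median of -0.28 and a summed intensity of 4940 to 5700 in controls and 3800 to 5070 in treated liver. Groups were apart and lower for 6 of the 14, and apart and higher for 1, Marco. The 6 were Cd163 (-0.80 ± 0.16), Ctss (-0.60), Mpeg1 (-0.57), Csf1r (-0.56), Adgre1 (-0.48) and C1qb (-0.35). Marco had the largest difference of the list (1.34 ± 0.17). These markers, and the sinusoidal endothelial, stellate cell and hepatocyte ones below, were all at or above the median level. At that level 32.6% of all genes were lower and 8.64% higher without overlap, with a median difference of -0.10. Among the markers that overlapped, Clec4f read 8.78 on treated replicate 1 and 9.09 on treated replicate 2, against 9.08 to 9.24 in controls. C1qa, which overlapped too, read 7.41 and 8.05 on these arrays, against 7.78 to 7.88. Sinusoidal endothelial markers had 8 of 12 below 0 and a median of -0.08, with sums of 5330 to 5650 against 5580 to 5900. Clec4g, the brightest of them, weighed most in the sums and was higher without overlap (0.31 ± 0.10). Fcgr2b was also higher without overlap (0.18 ± 0.12), and Kdr (-0.10) and Tek (-0.14) were lower without overlap. Stellate cell markers had 4 of 10 below 0, a median of 0.03 and sums of 3820 to 4100 against 3910 to 4180. Hepatocyte markers had 4 of 6 below 0, a median of -0.05 and sums of 42800 to 45100 against 41100 to 42900. Cholangiocyte markers had 3 of 5 below 0, a median of -0.01 and sums of 251 to 276 against 192 to 267, with Sox9 at -0.51 ± 0.15 but Krt19 at 0.20 ± 0.26.

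Monocyte markers had 3 of 5 below 0 and a median of -0.07, with sums of 139 to 385 against 121 to 319. The sums largely followed Nr4a1, which read 8.21, 7.06 and 5.75 in controls and 7.88 and 5.01 in treated liver. The other 4 were dim. Of these, Cx3cr1 was lower without overlap (-0.57 ± 0.14), as were 3.01% of dimmer genes, and Ccr2 was higher without overlap (0.09 ± 0.10). For T and NK cells, among the sources of Sema4d, 2 of 9 markers were below 0, with a median of 0.08. Their sums were 203 to 243 in controls against 215 to 265. Of the 9, 6 were dim, and the median difference over all dimmer genes was 0.17. Platelet markers had 1 of 4 below 0 and a median of 0.08, with sums of 175 to 228 against 180 to 268. Neutrophil markers were all dim, and 5 of 5 were higher without overlap, as were 45.9% of all dimmer genes, with a median of 0.31 and sums of 91.4 to 99.2 against 113 to 120. No marker was listed at 0. Plxnb1 and Plxna2 were low on both treated arrays alike, whereas Sema4b and Sema4g were lowest on treated replicate 2 and Cd72 on treated replicate 1. The part of any marker list in the differences of the family was not tested.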

How the data were processed

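RNA from whole liver was prepared with Trizol, amplified as cDNA with NuGEN Pico SL and hybridised to Affymetrix arrays, per the labels' protocols. Values were deposited as linear intensity for 35556 probe sets. For these the authors used Affymetrix Expression Console 1.1, per the submitters' processing notes. How probe sets were summarised and arrays scaled is not given in the sources used here. A level-dependent shift that scaling leaves between arrays can move dim and bright genes apart, so the family is also given after quantile normalization and cyclic loess, which reduce such a shift.

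Log2 was taken without pseudocount, filter or further scaling. Probe sets were named from the platform annotation (21218 with 1 symbol), and symbols were updated through the RefSeq gene table. The groups were fitted in R 4.3.3 with limma 3.58.1 (lmFit, eBayes, 3 residual and 3.03 prior degrees of freedom, Benjamini-Hochberg over all probe sets). Precision is limited by how few arrays there are, with a median SE of 0.138. The lowest p an exact permutation test could reach here is 0.1. Steps were tested on simulated data.

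Members, gene lists and tests were chosen with earlier results of these data known, and the split at the median level after the values were seen. Full array values were given for genes with groups apart and a difference of at least 0.5, filled up to 8 by size, and for the genes set beside them. Of each signalling group the gene of smallest p in each direction was named; others named there, and the examples of markers, were chosen after their values were seen. Alternatives were quantile normalization, centring, cyclic loess, leaving out each array, the replicate block, the mean over probe sets, filters on level and other limma settings. Motifs were searched with Python 3.11.15, and figures drawn with matplotlib 3.10.9.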

Additional observations from a re-analysis of the deposited data

How the results depend on the processing

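Leaving out each array in turn gave 8 to 15 lower and 5 to 9 higher family genes without overlap. The median difference was -0.128 to 0.0119. Fewer arrays overlap less often for any gene, and the matching shares over all genes were not computed. The 15 came without treated replicate 1, 14 without control replicate 1, and the 9 higher ones without treated replicate 2, where the median also turned to 0.0119. Without members under the median level, 7 lower genes and 1 higher gene were left. That level had removed 4 of the 5 higher genes and 1 of the 8 lower ones. In the signalling list the counts of 0 became 5 lower and 1 higher at an unadjusted p under 0.05, and stayed at 0 in every other limma setting and scaling tried. Control and treated arrays share replicate numbers, which are not taken as pairs. Their deviations from the group means correlated at 0.027 for number 1 and 0.033 for number 2. The deviations of 2 treated arrays mirror each other, so these values cannot exclude pairing. With the replicate block the median difference was -0.07 and signalling calls stayed at 0. Of the 31 genes, 17 kept the sign of their difference in all 10 alternatives tried for each. Of 310 such values, 36 moved by more than 1 SD of the arrays. The 10 are not separate checks. The replicate block gave the same differences as leaving out control replicate 3, and the mean over probe sets changed Plxnb1 only. With 2 treated arrays, and no detection calls used here, small differences of dim genes cannot be resolved.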

Other observations

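Several family genes differed between the 2 treated livers by more than the controls differed among themselves. Sema3c, a secreted ligand of neuropilins and Plxnd1, read 4.86 on treated replicate 1 and 4.15 on treated replicate 2, against 4.03, 4.51 and 4.27 in controls. Plxna3 read 4.79 and 4.21 on the same arrays, against 4.27 to 4.48 in controls. Plxna4 read 6.28 and 5.79, against 6.02 to 6.35, and Sema5a 4.94 and 4.51, against 4.75 to 4.97. In each of these 4 genes treated replicate 1 was the higher array. Sema4c ran the other way, at 5.15 and 5.56, and so did Sema6b, at 5.21 and 5.56. The median deviation of the 31 genes from the control mean was 0.01 on the first of the treated arrays and -0.13 on the other.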
